A study of Mus musculus with 198 samples.

Results

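The genes described here encode proteins of neutrophil granules and calprotectin, and were followed in RNA-seq counts from 9 tissues of C57BL/6 mice. The mice had received, over 17 weeks, either an anti-PAPP-A antibody or the control treatment. There were 10 genes of the 56332 in the deposited table, taken by name. The early group held 3 genes, Mpo, Elane and Prtn3, and the late group held 7, Camp, Ltf, Ngp, Lcn2, Ly6g, S100a8 and S100a9. They were chosen by an earlier look at these same libraries, in which the marrow levels of neutrophil genes lay lower in treated mice, so the marrow values by treatment are given below as a description and support nothing. The control group held 12 mice (6 female, 6 male) and the anti-PAPP-A group 10 (5 female, 5 male), and every mouse gave bone marrow, spleen, liver, lung, kidney, heart, skin, gonadal fat and subscapular (subcutaneous) fat. PAPP-A is a secreted protease that cleaves binding proteins of insulin-like growth factors. The sources used here do not give the mice's age or what the control group received.

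Neutrophils are made in the bone marrow and load their granules in order as they mature. Promyelocytes make the azurophil (primary) granule proteins, which include myeloperoxidase (Mpo) and the serine proteases neutrophil elastase (Elane) and proteinase 3 (Prtn3). Later stages make the specific (secondary) granule proteins, which include the cathelicidin antimicrobial peptide (Camp), the iron-binding protein lactoferrin (Ltf), neutrophilic granule protein (Ngp) and lipocalin 2 (Lcn2), which binds iron-carrying siderophores. S100a8 and S100a9 pair to form calprotectin, the abundant calcium- and zinc-binding protein of the neutrophil cytosol, and Ly6g is the surface antigen used to mark mouse neutrophils. Most transcripts of the granule proteins are made in the marrow and are largely gone from neutrophils in blood and tissue, while Ltf and Lcn2 are also made by epithelia.

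The genes lie on 6 chromosomes of the mouse genome (mm10 coordinates from GENCODE vM21), and all are protein-coding. Mpo (ENSMUSG00000009350.13) is at chr11:87793581-87804413 on the plus strand. Elane (ENSMUSG00000020125.6, chr10:79886247-79888215) and Prtn3 (ENSMUSG00000057729.12, chr10:79874476-79883174) lie on the plus strand of chromosome 10 with 3.1 kb between them. The deposited version of the Elane identifier is not in that annotation, so its position was taken by the identifier without its version. S100a8 (ENSMUSG00000056054.9, chr3:90668978-90670035, plus strand) and S100a9 (ENSMUSG00000056071.12, chr3:90692632-90695721, minus strand) are separated by 22.6 kb. Chromosome 9 holds 3 late genes within a stretch where Camp (ENSMUSG00000038357.10, chr9:109847379-109849617, minus strand) is 570.1 kb from Ngp (ENSMUSG00000032484.8, chr9:110419747-110423012, plus strand). Ltf (ENSMUSG00000032496.7, chr9:111019271-111042767, plus strand) is a further 596.3 kb from Ngp. Lcn2 (ENSMUSG00000026822.14) is at chr2:32384633-32388252 on the minus strand and Ly6g (ENSMUSG00000022582.4) at chr15:75155240-75159126 on the plus strand. Ly6g belongs to a family of similar genes, so its counts can be shared with relatives and are uncertain.

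The stretches upstream of 4 of the genes are shown. S100a8 and S100a9 hold the highest levels and lie side by side. Ltf is a late gene that, like Lcn2, also appeared outside blood-forming tissue, and Elane stands for the early group. The sequences are from RefSeq (GRCm38.p6, the assembly called mm10), run 5′ to 3′ on the gene's strand and stop at the base before the annotated gene. Capitals mark matches, on either strand, to TTGCNNAA (a core letter pattern of C/EBP factors) or GAGGAA (a core pattern of the factor PU.1), both of which are factors of granulocyte development.
S100a9: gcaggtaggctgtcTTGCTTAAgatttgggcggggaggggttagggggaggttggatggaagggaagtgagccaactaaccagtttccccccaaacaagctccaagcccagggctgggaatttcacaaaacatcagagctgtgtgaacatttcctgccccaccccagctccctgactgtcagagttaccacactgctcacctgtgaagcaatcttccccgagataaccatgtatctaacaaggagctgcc
S100a8: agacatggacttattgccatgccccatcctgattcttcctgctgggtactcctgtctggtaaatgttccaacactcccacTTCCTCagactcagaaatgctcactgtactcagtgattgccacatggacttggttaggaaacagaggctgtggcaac
Ltf: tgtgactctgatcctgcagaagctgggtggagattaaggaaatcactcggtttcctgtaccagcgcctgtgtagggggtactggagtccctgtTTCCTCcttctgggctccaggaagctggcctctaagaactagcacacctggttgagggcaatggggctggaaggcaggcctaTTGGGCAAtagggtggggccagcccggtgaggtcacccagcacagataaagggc
Elane: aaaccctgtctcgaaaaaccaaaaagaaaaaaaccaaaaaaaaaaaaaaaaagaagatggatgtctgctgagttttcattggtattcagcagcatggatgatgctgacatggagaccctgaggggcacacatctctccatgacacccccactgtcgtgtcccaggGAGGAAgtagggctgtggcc
They cover chr3:90695722-90695971 on the minus strand for S100a9, chr3:90668821-90668977 on the plus strand for S100a8, chr9:111019042-111019270 on the plus strand for Ltf and chr10:79886062-79886246 on the plus strand for Elane. All 10 genes were found in the promoter table, Ly6g with 2 entries.

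In the 250 bases upstream of the RefSeq start, TTGCNNAA was found for 5 of the 10 genes (Ltf, Ngp, Lcn2, Ly6g and S100a9), which were 5 of the 7 late genes and 0 of the 3 early genes. Of all 32851 promoter windows of that length, 9.56% held it. GAGGAA was found for 7 of the 10 genes, all 3 early genes with Ltf, Lcn2, Ly6g and S100a8, against 23.3% of all windows. TATAAA on the gene's own strand, the letters of a TATA box, was found for Ly6g and S100a8, against 7.59% of windows, and the S100a8 match lies in bases not printed. No match of one pattern overlapped a match of another. These are matches of letters and not measured binding.

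A library held 4138419 to 19517950 counts (median 8950258), but 9 features took most of them in a typical library. The count left for all other genes, called usable here, ran from 33377 to 4694597 with a median of 1099966.5, and levels below are CPM, a gene's count scaled to 1000000 usable counts. The label of 5 libraries is in doubt, because they held much less of their own tissue's marker genes than the other libraries: gonadal fat of anti-PAPP-A male 58, heart of control female 22, lung of control male 68, skin of anti-PAPP-A female 36 and subscapular fat of control female 20. None of these 5 was a spleen library. Marrow libraries were not checked against marker genes, only for the number of genes with counts, and none was in doubt by that. Most of the values below come from marrow and spleen. In whole tissue, fewer neutrophils and less RNA per neutrophil cannot be told apart. Mice are separate animals, and each gave 1 library per tissue.

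Bone marrow stood far above every other tissue for each of the 10 genes. In the 12 control mice the lowest marrow library lay above the highest library of the next tissue for every gene. The 10 genes together took a median of 2.995% of the usable counts of a marrow library (lowest 1.693%, highest 5.872%), of which S100a8 and S100a9 alone took 1.959%. Of the counts of these 10 genes in marrow, the 3 early genes gave a median of 2.347%.

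Per kilobase of merged exons, the control medians in marrow spanned a range from proteinase 3 to S100a9. S100a9 stood at 23280 CPM per kb and its partner S100a8 at 14510. Camp followed at 3098 and Ngp at 3028, then Ltf at 825.8 and Lcn2 at 375.3. The early genes were low on the same scale, with Mpo at 148.0, Elane at 122.2 and Prtn3 at 52.31 CPM per kb, and the surface antigen gene Ly6g, at 82.37, lay among them. Thus the calprotectin genes were the most abundant of the set on this scale, and 6 of the 7 late genes stood above all 3 early genes.

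**Figure D1:**
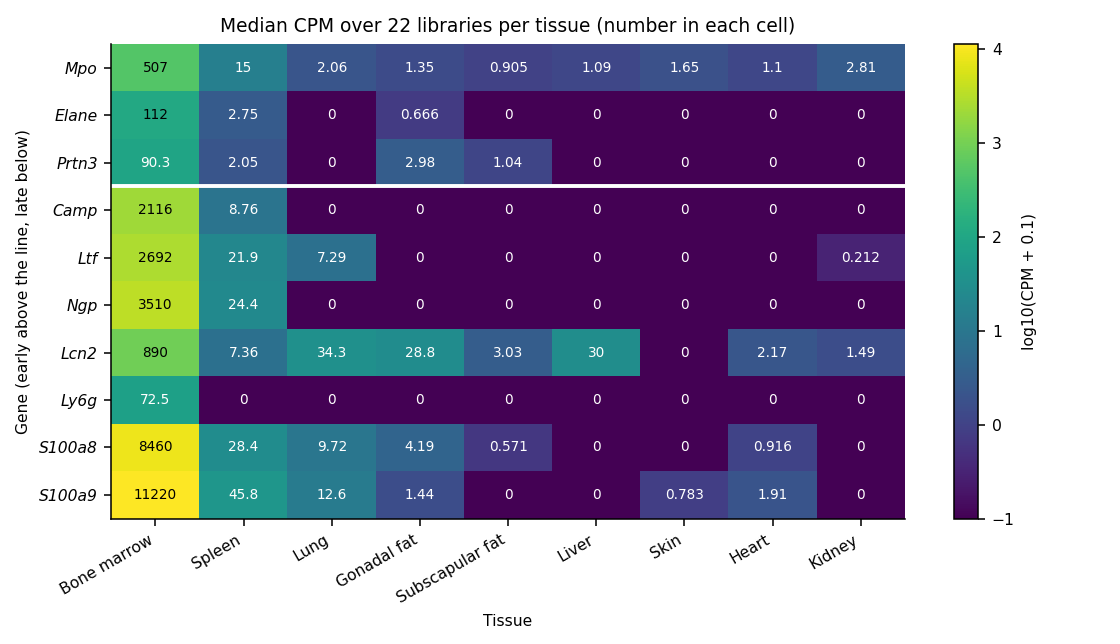
Median CPM (number in each cell) of the 10 genes (rows, early above the white line and late below) over the 22 libraries of each tissue (columns), with shading by log10(CPM + 0.1). The marrow column holds the highest value of every row, the spleen column is next for most rows, and Lcn2 is the row with values above 25 CPM in gonadal fat, liver and lung.

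Spleen, which in mice also makes blood cells, came next for 7 of the genes. S100a9 had a control median of 44.87 CPM there (lowest 0, highest 97.21), S100a8 21.23 (0 to 77.09), Ltf 20.35 (0 to 67.71) and Ngp 18.79 (0 to 68.07). Mpo stood at 14.94 CPM (3.372 to 42.22), Camp at 7.797 (0 to 23.03) and Elane at 2.037 (0 to 7.676). For each of these 7 genes the range in spleen overlapped that of the tissue after it in the order. Prtn3 was listed next in gonadal fat, at 3.387 CPM (0.4454 to 20.71), ahead of spleen at 1.829 (0 to 13.41), and these ranges overlapped too. Ly6g had 0 counts in every library of gonadal fat, lung and skin and in 14 of 22 spleen libraries, where its highest count was 2. A count of 0 allows up to 3 counts per library, a floor of 3.277 CPM at the median spleen depth. This floor covers counting error only.

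Marrow and spleen of control mice were compared for the 6 genes that passed the count filter over all 22 spleen libraries, treated mice included. Of the 12 control spleens, those with 10 or more counts were 3 for Camp, 8 for Mpo and Ltf, 9 for Ngp and S100a8 and 10 for S100a9. So these 6 genes too met the filter of this comparison through their marrow counts, and their differences are given as a description. The log2 difference, marrow minus spleen, was 4.81 ± 0.24 (SE) for the early gene Mpo, which was thus 28.08-fold higher in marrow. Among the 5 late genes Ltf had the smallest difference, 6.74 ± 0.39 (106.8-fold), and S100a8 the largest, 8.59 ± 0.43 (386-fold). S100a9 differed by 8.40 ± 0.43 (337.9-fold), Camp by 8.02 ± 0.33 (260.1-fold) and Ngp by 7.27 ± 0.36 (154.3-fold). The 5 late differences lay above that of Mpo, and the median over all genes tested was -0.01. Elane, Prtn3, Lcn2 and Ly6g did not pass the filter even over all 22 spleens, and Ly6g was at 0 in 9 of the 12 control spleens. These genes entered this comparison only through their marrow counts and had to differ, so their differences are not given.

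The 6 genes passed in this comparison (edgeR quasi-likelihood test, n = 12 libraries per tissue, adjusted p from 1.56e-18 to 2.88e-15), as did 71% of the 11514 genes tested, so a call by itself sets them apart little. Because the 6 genes met its filter through their marrow counts, these calls support nothing. In the 10 anti-PAPP-A mice the difference was 4.52 for Mpo and ran from 5.78 (Ltf) to 7.45 (S100a8) for the late genes. The early genes made up 2.347% of the 10 genes' counts in marrow (1.354% to 3.309%) and 14.07% in spleen (4.717% to 100%), where some libraries held only a few of these counts. Whether the late and early differences themselves differ was not tested.

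Other neutrophil genes were compared between marrow and spleen of control mice too, as lists described by their counts. Over all 22 spleen libraries the filter was met by 7 secondary and tertiary granule genes, 11 receptor and late maturation genes, 5 transcription factors and 3 primary granule genes. The rest of these 4 lists entered through their marrow counts and had to be higher there, so the counts below support nothing. Of all 11514 genes tested, 4077 passed as higher in marrow and 4094 as lower. Of 12 other secondary and tertiary granule genes tested, 11 had positive and 1 had negative estimates, and the 11 passed, with a median log2 difference of 5.28. All 21 receptor and late maturation genes tested were higher, with a median of 3.42. Of 9 transcription factors, 8 were higher and 1 lower. Of 4 other primary granule genes, 3 were higher and Ctsc, a cathepsin that activates granule serine proteases and is made by many cells, was lower (-0.52). Of 8 calprotectin partners and receptors, 5 had positive and 3 negative estimates, and 5 passed as higher and 2 as lower, among them Cd36, a scavenger receptor of macrophages and endothelium (-3.28).

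By treatment, the marrow levels of the late genes lay lower in anti-PAPP-A mice and those of Mpo and Prtn3 nearly level, given as a description because this contrast led to the choice of the genes. S100a8 stood at a median of 10070 CPM in the 12 control mice (lowest 6036, highest 19650) and 7083 in the 10 treated mice (4599 to 12390). S100a9 stood at 12150 CPM (8439 to 24560) and 9278 (5545 to 15680). Camp stood at 2348 CPM (1335 to 4059) and 1656 (1015 to 3359). Below the control median were 8 of the 10 treated mice for S100a8 and 7 for each of the other 2 genes, and the groups overlapped.

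The other late genes were also lower in treated mice at the median. Ly6g stood at 77.59 CPM (52.2 to 114.3) in control and 57.84 (39.39 to 81.4) in treated mice, with 9 of 10 treated mice below the control median. Ngp stood at 3700 CPM (3186 to 5178) and 3142 (2387 to 5648), and 6 treated mice lay below the lowest control mouse while 1 lay above the highest. Lcn2 stood at 984.4 CPM (751 to 1536) and 807.5 (688 to 1360), and Ltf at 2849 (2247 to 3988) and 2406 (2105 to 3465). In each of these 4 genes the groups overlapped.

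Of the early genes, Mpo and Prtn3 were nearly level and Elane was lower in treated mice at the median. Mpo stood at 506.7 CPM in control (335.8 to 695.1) and 518.0 in treated mice (292.9 to 737.6). Prtn3 stood at 90.6 CPM (48.8 to 127.1) and 90.02 (44.97 to 130.8), and for both genes 5 of 10 treated mice lay below the control median. Elane stood at 120.2 CPM (85.32 to 164.5) and 102.7 (58.13 to 168.3), with 7 of 10 below. The log2 difference, anti-PAPP-A minus control with sex in the model, was -0.08 ± 0.14 (SE) for Mpo, -0.12 ± 0.17 for Prtn3 and -0.29 ± 0.14 for Elane.

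On the same scale of differences the late genes ran from -0.23 ± 0.11 (Ltf) to -0.55 ± 0.16 (S100a8), with Camp at -0.51 ± 0.18, S100a9 at -0.51 ± 0.17 and Ly6g at -0.50 ± 0.13. The median was -0.12 over the early and -0.50 over the late genes, against -0.01 over all 12891 genes tested, of which 51.5% were negative. Elane lay among the late genes, beyond Ltf and Ngp (-0.27 ± 0.14), and early against late was not tested. By edgeR's quasi-likelihood test 0 of the 10 passed an adjusted p of 0.05, where 0.00776% of all genes did (1 gene, Igfbp5, which encodes an insulin-like growth factor binding protein) and 904 genes were under 0.05 before adjustment. By DESeq2 the number passing was 0 genes, and by limma-voom 1.

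The early share of the 10 genes' counts was 2.088% at the control median (1.354% to 2.749%) and 2.582% in treated mice (1.878% to 3.309%), and the groups overlapped. In the same libraries the usable depth had a median of 1196253.5 in control and 1664964 in treated mice. Summed markers of other cells were 150.8 and 182.4 CPM for haematopoietic progenitors, 180.7 and 255.4 for megakaryocytes, 961.7 and 947.4 for B cells and 1307 and 1180 for erythroid cells in control and treated mice. The part of depth and cell makeup in the marrow values was not tested.

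**Figure D2:**
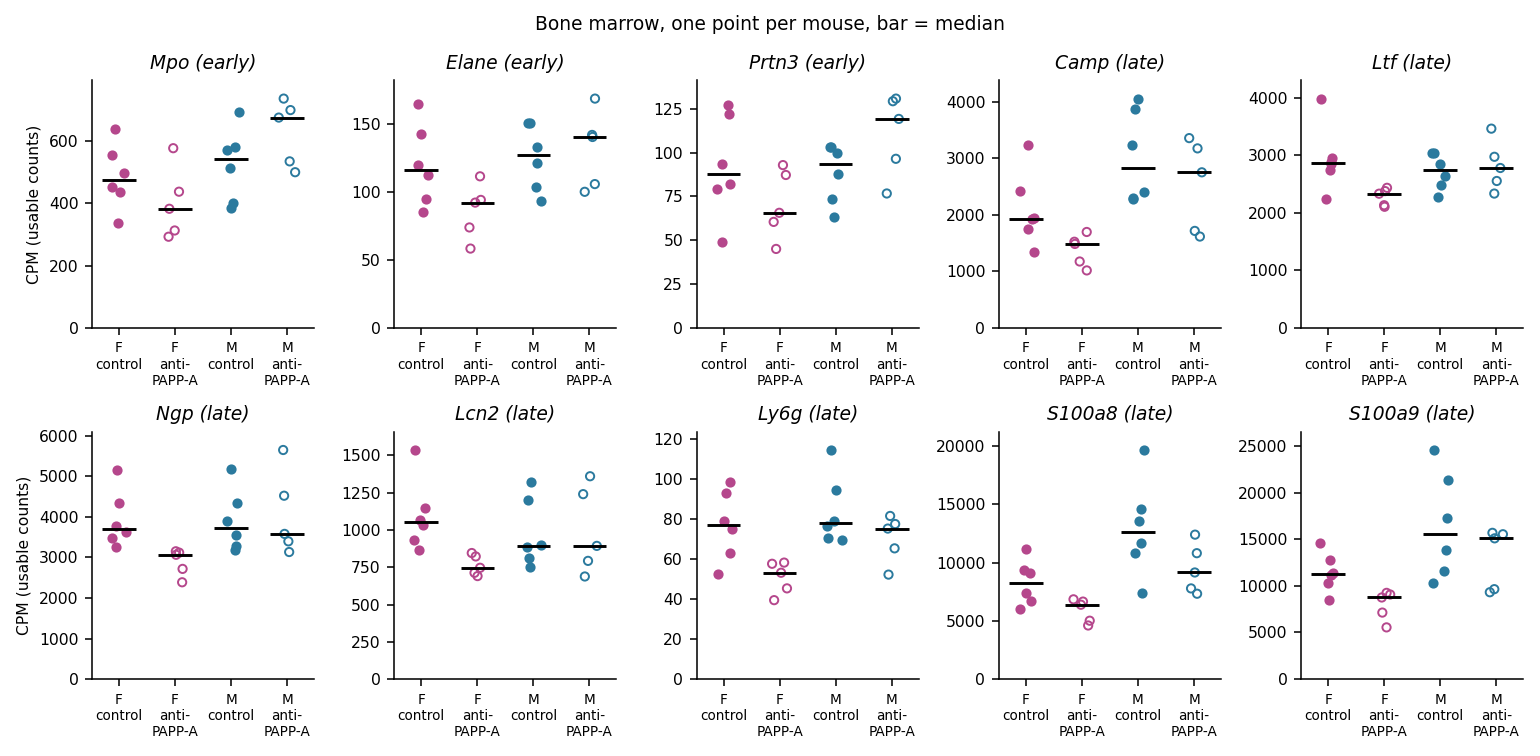
CPM in bone marrow for each of the 10 genes, 1 panel per gene, with females and males, control (filled) and anti-PAPP-A (open) mice apart; each point is a mouse and the bar is the median of its group. All 5 treated females lie below all 6 control females for Ngp and Lcn2, while the treated males spread over the range of the control males for most genes. These values belong to the contrast that chose the genes, and how many of all marrow genes lie apart in this way was not counted.

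Split by sex, the genes differed in how their levels by treatment lay in females and males. These values belong to the contrast that chose the genes. How many of all marrow genes lie apart in females, as Ngp and Lcn2 do below, was not counted. Ngp in the 5 treated females was 3151, 2387, 3065, 3118 and 2717 CPM, all below the lowest of the 6 control females at 3255, while medians in males were 3714 in control and 3580 in treated mice. Lcn2 in the treated females was 845.3, 690.7, 822.4, 746.4 and 712.6 CPM, all below the lowest control female at 868.3, and the male medians were 892.2 and 893.2. Mpo went from a median of 475.6 in control to 382.9 CPM in treated females and from 542.5 to 676.5 in males. Prtn3 went from 87.81 to 65.6 CPM in females and from 93.67 to 119.2 in males. S100a8 went from 8258 to 6380 CPM in females and from 12610 to 9145 in males, lower in treated mice of both sexes at the median.

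The difference between the sexes in the treatment effect did not pass for any of the 10 genes. The sex by treatment term (female minus male) was negative for all 10 and ran from -0.05 ± 0.33 (S100a8) and -0.19 ± 0.35 (S100a9) to -0.80 ± 0.30 (Prtn3), with an adjusted p of 1 for each by edgeR's quasi-likelihood test. It passed for 0% of the 12891 genes tested, and 583 genes were under 0.05 before adjustment. By DESeq2 and by limma-voom the number passing was 0 as well, with 467 and 601 genes under 0.05 before adjustment. So no difference between females and males in the response was detected at this size of study.

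Sex itself set marrow levels of 3 late genes apart. S100a9 stood at a median of 9245 CPM in the 11 females (5545 to 14640) and 15090 in the 11 males (9312 to 24560). S100a8 stood at 6681 CPM in females (4599 to 11130) and 10800 in males (7323 to 19650), and Camp at 1696 (1015 to 3235) and 2753 (1615 to 4059). All 11 females lay below the male median for S100a9 and 10 of 11 for S100a8 and Camp, though the ranges of the sexes overlapped.

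With treatment in the model the log2 difference, female minus male, was -0.79 ± 0.16 for S100a8 (1.73-fold lower in females, edgeR quasi-likelihood test, adjusted p = 0.0145). It was -0.81 ± 0.17 for Camp (1.75-fold lower, adjusted p = 0.022) and -0.75 ± 0.17 for S100a9 (1.68-fold lower, adjusted p = 0.0345), both by the same test. Thus 3 of 10 genes passed, where 0.721% of the 12891 genes tested did (93 genes, 43 higher and 50 lower in females).

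The other 7 genes did not pass, though all 10 estimates were negative. Mpo differed by -0.47 ± 0.14 (edgeR adjusted p = 0.124), Elane by -0.42 ± 0.14 (0.168) and Prtn3 by -0.36 ± 0.17 (0.319). Ly6g differed by -0.38 ± 0.13 (0.177), Ngp by -0.34 ± 0.14 (0.255), Lcn2 by -0.20 ± 0.15 (0.57) and Ltf by -0.19 ± 0.11 (0.436). The early median of -0.42 and the late median of -0.38 were close, against -0.003 over all genes. So the calprotectin genes and Camp differed between the sexes by more than the other secondary granule genes at the level of estimates, with Ltf and Lcn2 smallest, and differences among genes were not tested.

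Whether the sex difference was called depended on the mice in the fit. In control mice alone (6 of each sex) 0 of the 10 passed, with S100a8 at -0.76 ± 0.25, S100a9 at -0.65 ± 0.25 and Camp at -0.63 ± 0.23 (edgeR adjusted p from 0.504 to 0.605), and 5 of the 5394 genes that met the count filter there passed. Leaving out each mouse in turn, S100a8 passed in 22 of 22 fits, Camp in 20 (not without mouse 33 or 71) and S100a9 in 10. S100a9 was lost without mouse 3, 9, 11, 18, 22, 33, 36, 56, 58, 62, 68 or 71, with an adjusted p of at most 0.0814 by edgeR. With 2 surrogate variables S100a8 alone passed (-0.50, adjusted p = 0.0464).

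Beside the sex difference in marrow, the usable depth had medians of 1224910 in females and 1256578 in males. Summed markers were 1060 and 875.1 CPM for B cells, 239.2 and 189 for megakaryocytes, 177.2 and 153.5 for progenitors, 1358 and 1126 for erythroid cells and 76.6 and 99.99 for eosinophils in females and males. Their part in the sex difference was not tested. The 10 genes took 2.434% of usable counts in females (1.693% to 3.815%) and 3.88% in males (2.587% to 5.872%), while the early share of their counts was 2.331% and 2.363%.

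**Figure D3:**
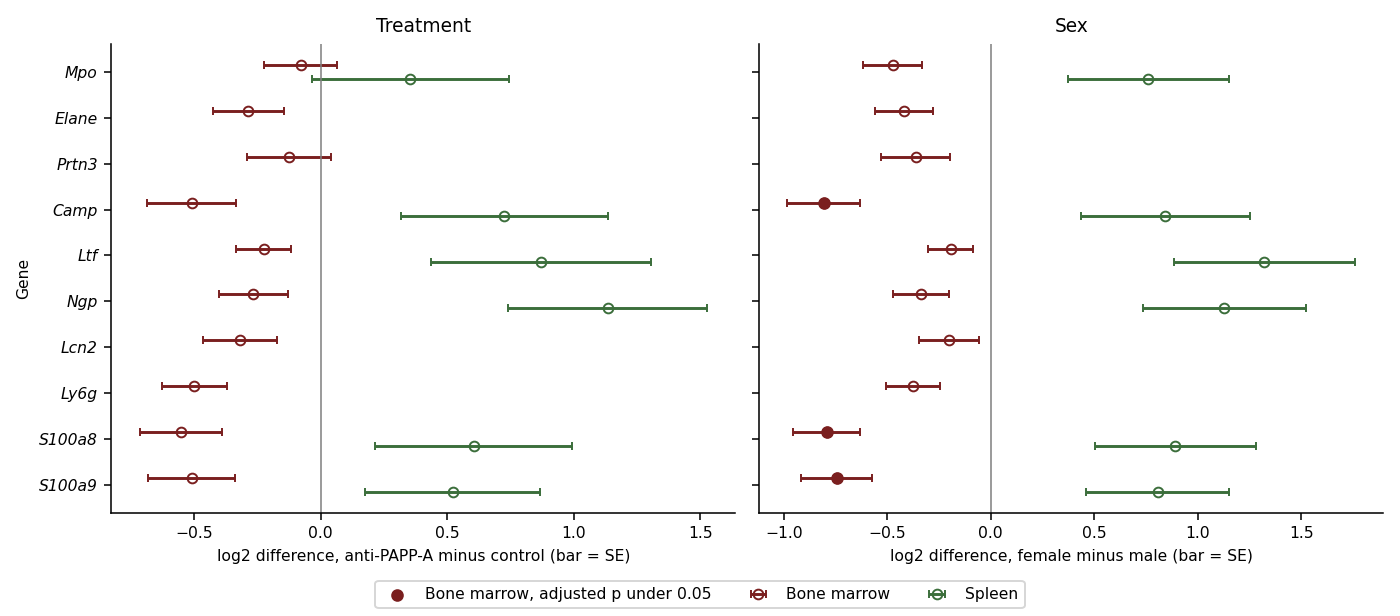
Log2 differences with their standard errors (bars) for the genes tested in bone marrow and spleen, anti-PAPP-A minus control on the left and female minus male on the right; red is marrow, green is spleen, and filled points had an adjusted p under 0.05. Marrow estimates lie left of 0 in both panels and spleen estimates right of 0, and only Camp, S100a8 and S100a9 in marrow are filled.

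The wider neutrophil programme in marrow was small in its differences. By treatment, all 6 other primary granule genes tested had negative estimates (median -0.14), as did all 14 other secondary and tertiary granule genes (median -0.25), and 0 of either list passed. Examples are Ms4a3, a membrane protein of granulocyte-monocyte progenitors (-0.30 ± 0.17), Ctsg, the granule protease cathepsin G (-0.12), Mmp9, the tertiary granule gelatinase (-0.27 ± 0.08), and Itgb2l (-0.26 ± 0.07). These belong to the same contrast that chose the genes and are given as values only. Over all 12891 genes tested, 51.5% were negative by treatment.

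Of 22 receptor and late maturation genes, 21 were negative by treatment (median -0.13), among them the Fc receptor gene Fcgr4 (-0.47), Retnlg (-0.29) and Alox5ap, which helps make leukotrienes (-0.32). Of 9 transcription factors 6 were negative (median -0.06), with Cebpe, the factor of the secondary granule stage, at -0.34 ± 0.14 and Gfi1 at -0.14. All 9 calprotectin partners and receptors were negative (median -0.20), with S100a6 at -0.42 and S100a4 at -0.38. None of these 3 lists held a gene that passed.

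By sex, marrow estimates were negative for all 6 other primary granule genes (median -0.42), 13 of 14 secondary and tertiary granule genes (median -0.28), 7 of 9 transcription factors (median -0.24) and 19 of 22 receptor and maturation genes (median -0.15). All 9 calprotectin partners and receptors were negative too (median -0.18), and S100a4, a calcium-binding protein of the same family, was the 1 gene of the 5 lists that passed (-0.74 ± 0.16, edgeR adjusted p = 0.022). Over all 12891 genes tested, 0.721% passed by sex and 50.8% were negative, so 1 call in these lists says little.

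In spleen the same genes were low, and their estimates ran the other way. By the low-count filter 6 of the 10 could be tested there (Mpo, Camp, Ltf, Ngp, S100a8 and S100a9). Ngp stood at a median of 18.79 CPM in control (0 to 68.07) and 52.5 in treated mice (9.546 to 129.7). S100a8 stood at 21.23 CPM (0 to 77.09) and 41.8 (5.851 to 91.57), and Ltf at 20.35 (0 to 67.71) and 44.35 (7.159 to 112.0). Treated male 62 was the highest of all libraries for Ngp, Ltf, Mpo and Camp, control females 18 and 20 were at or near 0, and the groups overlapped.

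The log2 difference by treatment in spleen was 1.13 ± 0.39 for Ngp, 0.87 ± 0.43 for Ltf, 0.72 ± 0.41 for Camp, 0.60 ± 0.39 for S100a8, 0.52 ± 0.35 for S100a9 and 0.36 ± 0.39 for Mpo. By edgeR 0 of the 6 passed (lowest adjusted p = 0.85, for Ngp, which was the 1 of them under 0.05 before adjustment), where 0% of the 11978 genes tested did and 637 were under 0.05 before adjustment. Neither DESeq2 nor limma-voom called any gene in this comparison. The estimates rested in part on treated male 62: without it they were 0.70 for Ngp, 0.37 for Ltf, 0.28 for Camp, 0.30 for S100a8, 0.27 for S100a9 and -0.14 for Mpo. The 2 shallowest spleen libraries were those of control females 18 and 20, and without them the Ngp estimate was 0.99 and the count passing stayed at 0.

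By sex, spleen levels were higher in females at the median, though 0 of the 6 passed. Ngp stood at 63.02 CPM in females (0 to 107.6) and 15.87 in males (7.735 to 129.7), and 9 of 11 females lay above the male median. Ltf stood at 63.63 CPM (0 to 98.75) and 17.91 (6.962 to 112.0), and S100a9 at 78.72 (0 to 134.8) and 41.76 (15.91 to 114.4). The log2 difference, female minus male, was 1.32 ± 0.44 for Ltf (edgeR adjusted p = 0.0845) and 1.13 ± 0.39 for Ngp (0.102), and the others lay between 0.76 (Mpo) and 0.89 (S100a8). In this comparison 4.53% of the 11978 genes passed.

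The sex result in spleen moved with the processing. With 2 surrogate variables 4 of the 6 passed, Ltf (1.48, edgeR adjusted p = 0.018), Ngp (1.27, 0.0226), S100a9 (0.98, 0.0265) and S100a8 (1.03, 0.0327). Without the 2 shallow spleen libraries Ltf passed (1.44, adjusted p = 0.04). Summed erythroid markers in spleen were 4659 CPM in females and 11290 in males, and 10320 in control and 4199 in treated mice, and their part in the spleen values was not tested. Of the other neutrophil genes that passed by sex in spleen (edgeR), Srgn (-0.36), which encodes the granule proteoglycan serglycin, and S100a10 (-0.42) were lower in females, and Cybb (0.23), a subunit of the oxidase that makes superoxide, was higher.

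The sex difference was compared between the tissues in a model that kept each mouse as a block, a comparison chosen after the data were seen. The term, the female minus male difference in marrow minus that in spleen, was negative for the 6 genes that met the filter in spleen and passed for Camp (-1.77 ± 0.42, edgeR quasi-likelihood test, adjusted p = 0.0388). Camp was low in spleen, with a median of 9 counts and 10 or more counts in 8 of 22 libraries. Ltf (-1.68) and Ngp (-1.55) had an adjusted p of 0.0728, Mpo (-1.35) and S100a8 (-1.57) one of 0.0928, and S100a9 (-1.40) one of 0.147. The other 4 genes entered only through their marrow counts and did not pass. The background was 0.9% of the 12451 genes tested. Ms4a3 of the other primary granule genes passed (-2.54 ± 0.63, edgeR adjusted p = 0.0484). Like those 4 genes, Ms4a3 did not meet the filter in spleen and entered only through its marrow counts, so it adds no support.

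That test also rested on its setting. DESeq2 called 0 of the genes (Camp at an adjusted p of 0.0742), and limma-voom called 3, Ngp, S100a8 and S100a9, but not Camp (0.0517). Without the block 2 passed, Camp and S100a8. Without the mice of the 2 shallow spleen libraries 6 passed, Mpo, Camp, Ltf, Ngp, S100a8 and S100a9, with S100a9 at -1.75 (edgeR adjusted p = 0.00581).

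Across the 22 marrow libraries the 10 genes varied together. Pearson's r of log2(CPM + 1) was positive for all 45 pairs, from 0.359 (Mpo with Lcn2 and with Ly6g) to 0.969 (Camp with S100a9), with a median of 0.64, and Spearman's rho had a median of 0.674. With 100000 permutations and adjustment over the 45 pairs, 40 passed 0.05 by Pearson and 41 by Spearman. The strongest pairs were at the smallest p the permutations can give, 1e-05. Without the 2 libraries farthest from the median the r values kept their sign in all 45 pairs and had a median of 0.597. The libraries share a scale to usable counts and the sex and treatment groups, which all pairs have in common. The permutations ran over all 22 libraries without regard to these groups, and the genes were chosen by values of these same libraries. The counts of pairs passing are thus a description, and pairs of other marrow genes were not counted.

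The pairs fell into an early block and 2 late blocks. The 3 early genes correlated at 0.833 to 0.903 with each other. Camp, S100a8 and S100a9 correlated at 0.937 to 0.969 (S100a8 with S100a9 at 0.955), and Ltf, Ngp and Lcn2 at 0.837 to 0.904. Early with late pairs ran from 0.359 to 0.72, with a median of 0.577. Ly6g correlated at 0.752 to 0.79 with Ltf, Ngp and Lcn2. Between the late blocks r was lower than within them but varied, from 0.389 for Ltf with S100a8 and 0.439 for Ltf with S100a9 to 0.699 for Camp with Ngp and 0.718 for Ngp with S100a9. These blocks were noticed in the values and got no test.

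Within the arms the correlations differed in size. The median over the 45 pairs was 0.49 in the 12 control libraries and 0.781 in the 10 anti-PAPP-A libraries. Ltf with S100a9 was at -0.13 in control and 0.875 in treated mice, and Ltf with S100a8 at -0.04 and 0.731. Camp with S100a9 stood at 0.946 and 0.983, so the calprotectin and Camp pairs were high in both arms. The difference between the arms was not tested.

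**Figure D4:**
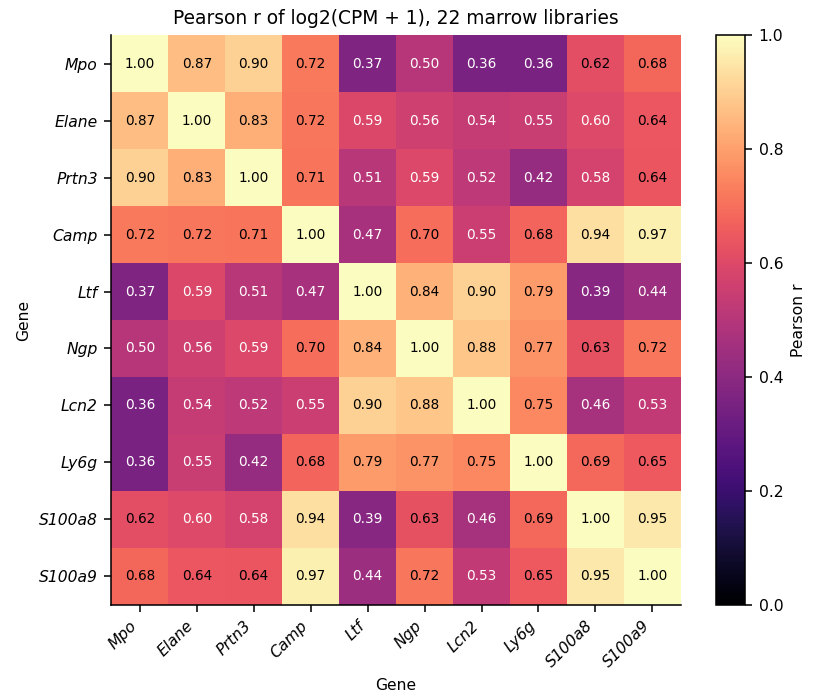
Pearson r of log2(CPM + 1) between each pair of the 10 genes (rows and columns in the order early, then late) over the 22 marrow libraries, from dark (low) to light (high). The early genes form a light square at 0.833 and above, and Camp with S100a8 and S100a9 and Ltf with Ngp and Lcn2 form 2 further light groups.

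The genes most like each group in marrow were taken by the mean r over the 22 libraries among 9131 genes with a mean of at least 10 CPM. For the early genes these were Ms4a3 (mean r 0.848), Ctsg (0.821), the histone genes Hist1h1b (0.795) and Hist1h3c (0.788), whose transcripts belong to dividing cells, and the ribosomal protein gene Rpl3 (0.784). For the late genes they were Anxa1, an abundant phospholipid-binding protein of neutrophils (0.842), Cox6b1 of the respiratory chain (0.794), Lyz2, the lysozyme of myeloid cells (0.789), Cd52 (0.788) and Ifitm6 (0.778). Ms4a3 and Ctsg were on the list of other primary granule genes and Lyz2 on that of secondary and tertiary granule genes.

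Outside blood-forming tissue Lcn2 was the most widespread of the 10 genes, and it was lower in females in gonadal fat and liver. In gonadal fat it stood at 10.04 CPM in the 11 females (0.5621 to 66.13) and 56.59 in the 11 males (6.941 to 134.0), with 10 of 11 females below the male median. In liver it stood at 21.94 CPM in females (10.43 to 45.16) and 39.5 in males (26.75 to 129.8), with 9 of 11 females below the lowest male. The groups overlapped in both tissues.

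The log2 difference, female minus male, was -1.88 ± 0.50 in gonadal fat (edgeR quasi-likelihood test, adjusted p = 0.0137) and -1.23 ± 0.29 in liver (adjusted p = 0.00284). Lcn2 was the 1 member tested in either tissue, and 15.2% of the 11663 genes tested in gonadal fat and 28.4% of the 8564 in liver passed by sex, so such a call was common there. Gonadal fat includes different depots in females and males. The 9 epididymis marker genes checked after seeing the values had a median of 0 in gonadal fat of both sexes and a summed level of at most 26.42 CPM. S100a8 in gonadal fat stood at 1.43 CPM in females (0 to 7.192) and 11.49 in males (1.455 to 80.28), and did not reach the filter for a test. The highest value was that of treated male 58, a library in doubt, and the next was 26.42 CPM in treated male 41.

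By treatment Lcn2 differed by -1.01 ± 0.50 in gonadal fat (55.93 CPM in control, 23.2 in treated; edgeR adjusted p = 0.981) and by 0.06 ± 0.29 in liver (adjusted p = 1). In lung, where 4 late genes could be tested, the differences were 1.13 ± 0.94 for Ltf, 0.09 ± 0.29 for Lcn2, -0.16 ± 0.42 for S100a8 and 0.03 ± 0.37 for S100a9. The Ltf estimate was positive although its lung median was lower in treated mice (4.22 against 14.77 CPM). In none of the 8 tissues other than marrow did a member pass by treatment, and in each of gonadal fat, heart, kidney, liver, lung, skin, spleen and subscapular fat 0% of all genes tested passed by edgeR, with 261 (subscapular fat) to 887 (lung) genes under 0.05 before adjustment. By other settings 2 genes passed in kidney with DESeq2. In liver 1 passed without the low-count filter and 1 with 2 surrogate variables. None of these was among the 10. None of the 10 reached the filter in heart, kidney, skin or subscapular fat.

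By sex in lung 0 of the 4 passed, with Lcn2 at 0.99 ± 0.29 (49.95 CPM in females, 25.33 in males; edgeR adjusted p = 0.256) against 0.144% of the 12538 genes. Ltf differed by 2.32 ± 0.96 (edgeR adjusted p = 0.433), although its median was lower in females (5.95 CPM, highest 1028) than in males (8.629, highest 96.9), so that estimate rests on a few high female libraries. The usable depth in lung had a median of 1289195 in control and 944625.5 in treated mice. Without treated female 33, which held the highest Ltf value, the Ltf difference was 1.56 by sex and 0.22 by treatment.

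Ltf in lung and subscapular fat moved with epithelial genes. In lung it stood at 14.77 CPM in control (0 to 255.7) and 4.22 in treated mice (0 to 1028). The 4 libraries highest in Ltf were also the 4 highest in a list of 10 genes of airway epithelium and glands: treated female 33 held 1028 CPM of Ltf and 6892 CPM of the list, treated female 36 held 370.8 and 5002, control female 22 held 255.7 and 3493, and control female 11 held 221.9 and 3716. The library labelled lung of control male 68, one of those in doubt, held 0 of Ltf and 0.7095 of the list.

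In subscapular fat Ltf stood at a median of 77.62 CPM in females (0 to 171.4), while 10 of 11 males were at 0 and the highest male at 0.344. The summed level of 10 glandular epithelium genes was 555.8 CPM in females (5.472 to 1372) and 6.193 in males (1.561 to 19.11), and the 2 females without Ltf, mice 20 and 33, held 17.49 and 5.472 of it. The library of mouse 20 is one of those in doubt. Lcn2 stood at 24.47 CPM in females (0 to 55.58) and 1.032 in males (0.3837 to 4.162). The mammary gland lies in the subcutaneous fat of female mice. Both epithelial lists were set up after these values were seen, Ltf and Lcn2 did not reach the filter in this tissue, and the part of epithelium in their levels was not tested. Ly6g was at 0 or 1 count in every subscapular fat library.

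**Figure D5:**
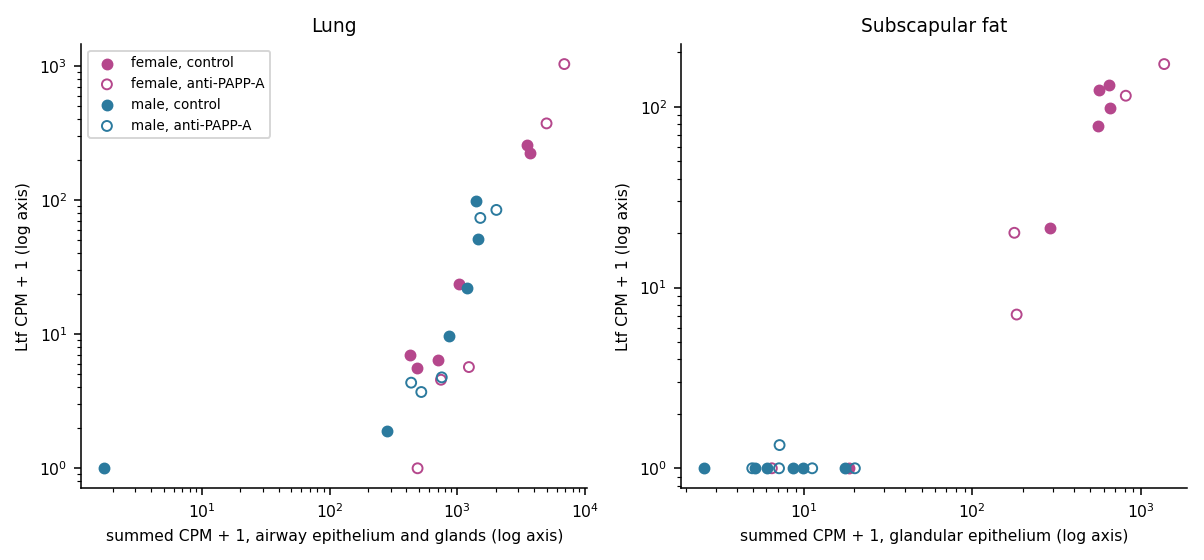
Ltf (CPM + 1, log axis) against the summed level of an epithelial gene list (CPM + 1, log axis) in lung (left, airway epithelium and glands) and subscapular fat (right, glandular epithelium); each point is a library, filled for control and open for anti-PAPP-A, coloured by sex. In both tissues the libraries with the most Ltf are those with the highest list, and in subscapular fat all males lie at the lower left.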

How the data were processed

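Per the labels' protocols, RNA came from whole tissue and went into stranded total RNA libraries. FastQC 0.11.5, Salmon and the mm10 build are named in the submitters' processing notes. The table the authors deposited holds counts as whole numbers (56332 genes, 198 libraries). The sources used here do not say how estimates became whole numbers or which annotation and strand setting were applied. The CPM denominator leaves out 9 features, each averaging 0.9% or more of the counts, which stayed in the tests.

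Groups came from the labels. The members and gene lists were chosen with earlier results of these data known. Counts were tested in each tissue with edgeR 4.0.16 in R 4.3.3 (quasi-likelihood F-test, TMM, filterByExpr, sex or treatment as covariate), two-sided, with Benjamini-Hochberg adjustment over all genes tested and a threshold of 0.05. All 10 members were named, with up to 4 genes of the smallest p per other list and every one that passed, and the 5 genes most like each group. A listed gene that passed by sex in spleen is not reported here.

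Same-numbered marrow and spleen libraries come from the same mouse by the labels. The correlation of their deviations had a median of 0.03 over 12 control mice (-0.208 to 0.382). Alternatives were DESeq2 1.42.0, limma-voom (limma 3.58.1), RLE scaling, no filter, 2 surrogate variables (sva 3.50.0), sex left out, each mouse left out, no abundant features, the replicate block and single arms. Chosen after seeing the data were sex in gonadal fat, liver and lung, sex by tissue, fits without the libraries in doubt, without mouse 33 or 41 and without shallow spleens, and the epithelial and epididymis lists. On simulated data 44% of 1.5-fold and 100% of 2-fold changes by treatment in marrow, and 66% and 98% by sex, were recovered among 12891 genes with 200 changed. Tables were handled with Python 3.11.15 (pandas 2.3.3, numpy 2.4.6, scipy 1.17.1) and figures drawn with matplotlib 3.10.9.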

Additional observations from a re-analysis of the deposited data

Results flagged for a closer look

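Of 22 groups of 10 treated libraries looked at, 2 held a library far apart from the other 9. For independent, normally distributed values chance would set about 1 in 20 such groups apart. CPM values are skewed and the genes share mice, so the rate here is not known. Lcn2 in liver was 129.8 CPM in treated male 41, the highest of the 10, and without this mouse the sex difference of Lcn2 in liver still passed (edgeR adjusted p = 0.00462). Ltf in lung was 1028 CPM in treated female 33, which also held the highest summed level of airway epithelium genes, 6892 CPM.

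For Camp, the female minus male difference in marrow and that in spleen differed by -1.77 on the log2 scale, by a test of the difference itself (edgeR adjusted p = 0.0388, and 0.0742 by DESeq2). The test was chosen after the data were seen, and Camp had a median of 9 counts in spleen.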

How the results depend on the processing

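Over the alternatives, 168 counts of members passing stayed within 1.5 times the reported count and 10 moved. Many of these were counts of 0 by treatment that stayed at 0, also in tissues where no member was tested, so their agreement says little. All 287 marrow estimates by treatment stayed within 1 SD of the reported value. Among the other member estimates, 644 were about the same, 21 weaker, 14 stronger and 14 of the opposite sign. With the replicate block, which pairs marrow and spleen of the same control mouse, 10 members (all filtered in through marrow, 4 of them untested in spleen alone) and 8013 genes passed. Members passing by sex in marrow were 1 with 2 surrogate variables, 0 in control mice only and 1 to 3 with a mouse left out. Genes passing there were 180 by DESeq2, 58 with 2 surrogate variables and 5 in control mice only, which is a smaller set of mice. By sex in spleen 4 members passed with 2 surrogate variables and 1 without the shallow libraries. For sex by tissue 0 passed by DESeq2, 3 by limma-voom, 2 without the mouse block and 6 without the mice of shallow spleens.

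The estimates that changed sign had not passed as reported. By sex in marrow these were Lcn2 with 2 surrogate variables (0.0549) and, in control mice only, Lcn2 (0.0667), Prtn3 (0.026) and Ltf (0.0155). By treatment they were Mpo in marrow with 2 surrogate variables (0.0014), Mpo in spleen (-0.14 without mouse 62, and up to 0.5097 with another mouse left out), Lcn2 in liver without mouse 41 (-0.31), and in lung S100a9 without a filter (-0.0059), with 2 surrogate variables (-0.24) and without the library in doubt (-0.10), Ltf with 2 surrogate variables (-0.27), Lcn2 with sex left out (-0.11) and S100a8 without mouse 33 (0.0154). By sex in lung S100a8 was 0.0236 by limma-voom and 0.0259 without mouse 33. The cause was not tested. The median r between members was 0.748 with TMM factors. Usable depth limits spleen and the tissues beyond it, where most members held too few counts for a test.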
